A study of Mus musculus with 54 samples.

Results

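PRC2 is the complex that places methyl groups on lysine 27 of histone H3, a mark found over silent developmental genes. Suz12 is the subunit on which the others assemble, Ezh2 or Ezh1 is the enzyme, and Eed binds the mark. In embryonic stem cells PRC2 is largely dispensable for self-renewal, and it is known for restraining genes of many lineages and for a part in the silencing of some imprinted genes. The comparison here asks which messenger RNAs differ, after 4 days of retinoic acid, between Suz12-deficient cells without and with Suz12 put back. The 6 libraries are the 3 day 4 EV and the 3 day 4 WT libraries of the Suz12 series, chosen by their titles, of 54 libraries in all.

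All cells of the Suz12 series are mouse embryonic stem cells of genotype SUZ12-/-, so WT here is a rescue and not an unmanipulated line. The Ezh2 series, set beside it near the end, is of cells that lack Ezh1 and Ezh2 per their label. Its WT is thus not an unmanipulated line either. EV is the line mESC-EV, which carries an empty PiggyBac vector (PiggyBac-empty), and WT is the line mESC-SUZ12_WT, which carries PiggyBac-SUZ12. Another line of the series, ddim, carries PiggyBac-SUZ12-deltadim, an altered Suz12 that the label calls deltadim, in a series titled for the dimerization of PRC2. Before differentiation all lines grew on gelatin in medium with 20% serum, LIF at 1000 U/mL, the GSK3 inhibitor CHIR99021 at 3 µM and the MEK inhibitor PD0325901 at 1 µM. On day 0 those 3 additions were withdrawn and retinoic acid was added at 0.1 µM. Each genotype is 1 line, the labels do not say whether a line is a clone or which promoter drives the vector, and genotype and line cannot be told apart. Nor do the labels say whether the 3 libraries of a group are separate cultures, so p-values measure only the spread between libraries.

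RNA was read near its polyadenylated end (QuantSeq), and the 6 tables hold between 4394090 and 4462441 counts on genes, with a count for 18696 to 19113 genes. Levels are in CPM, that is, counts on genes after scaling every library to the same size. Pearson correlations of log2 CPM were 0.985 to 0.986 between EV libraries, 0.986 between WT libraries and 0.978 to 0.980 between EV and WT. The most counted gene, CT010467.1, took 14.9% to 15.2% of gene counts in EV and 13.2% to 14.0% in WT. The labels call the day 4 cells differentiated. The level of the stem cell factor gene Sox2 was lower on day 4 than on day 0 in both lines, by a log2 difference of -6.92 in WT and -5.26 in EV. Among the blood and vessel markers Ptprc and Hba-a1 had no count in the 6 libraries. In bulk RNA, fewer cells of a type and less RNA per cell cannot be told apart.

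The targeted gene differed less on day 4 than on day 0. Suz12 (ENSMUSG00000017548, chr11:79993106-80034123, mm10) stood at 33.2, 30.6 and 30.7 CPM in the EV libraries and 47.8, 58.0 and 64.2 CPM in the WT libraries (log2 change -0.85 ± 0.11, adjusted p 1.4e-07, from edgeR's quasi-likelihood test with Benjamini-Hochberg adjustment, as every adjusted p below). The groups did not overlap, but the EV line still gave counts on a gene its label says it lacks, and tags of the 3′ end cannot tell which part of it was lost. On day 0 EV had a mean of 68.1 ± 4.97 CPM against 439 ± 8.62 CPM for WT (mean ± SD, n = 3). Counts on Suz12 in WT thus went down over the 4 days by a log2 difference of -2.95 ± 0.09, and ddim held 57.5 ± 8.43 CPM on day 4. The labels do not give the 3′ end of the insert, so how much of its RNA is counted on Suz12 is not known. Of the 6 core subunits only Suz12 and Rbbp7, a histone-binding subunit that PRC2 shares with other complexes, were called, both lower. Rbbp7 stood at 617, 660.4 and 612 CPM in the EV libraries and 798, 807 and 800.1 CPM in the WT libraries (log2 change -0.35 ± 0.07, adjusted p 4.4e-04). The ddim line was as low, at a mean of 616 CPM. The differences of Ezh2 (-0.13, adjusted p 0.4), Eed (-0.10, adjusted p 0.613), Ezh1 (-0.01, adjusted p 0.992) and the histone-binding subunit gene Rbbp4 (-0.17, adjusted p 0.0895) missed the threshold. None of 8 accessory subunits of PRC2 was called, with log2 differences between -0.35 and 0.38. Of 23 subunits of PRC1, the complex that reads the PRC2 mark, 1 was called: Pcgf5 stood at 41.0, 41.1 and 35.1 CPM in the EV libraries and 64.3, 59.7 and 56.5 CPM in the WT libraries (log2 change -0.62 ± 0.12, adjusted p 5.5e-04). None of 12 genes for the enzymes that remove or oppose the mark was called, and without WT library 2 it was 1, lower. Over all genes tested 3.66% were called higher and 3.73% lower.

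Across the transcriptome the calls were many and mostly small. Of 14442 genes tested, 529 were higher in EV (3.66%) and 539 lower (3.73%) at an adjusted p under 0.05. The libraries of the groups did not overlap for 3877 genes (26.8%), among them 1046 of the 1068 called. For a called gene, here and below, a lack of overlap thus adds little to the call. A difference of at least 1 on the log2 scale was reached by 171 of the higher and 78 of the lower genes, and the median called gene moved by 0.70 up or -0.48 down. The median of all genes was 0.00. The genes called lower were at higher levels, with a median of 77.7 CPM in WT against 16.9 CPM for those called higher and 18.2 CPM for all genes. With only the 6 libraries in the fit, the calls became 924 higher and 882 lower. Without EV library 1 or WT library 2 they were 327 and 358, and 295 and 342, and without EV library 2 or WT library 3 the higher calls were 348 and 346.

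**Figure D1:**
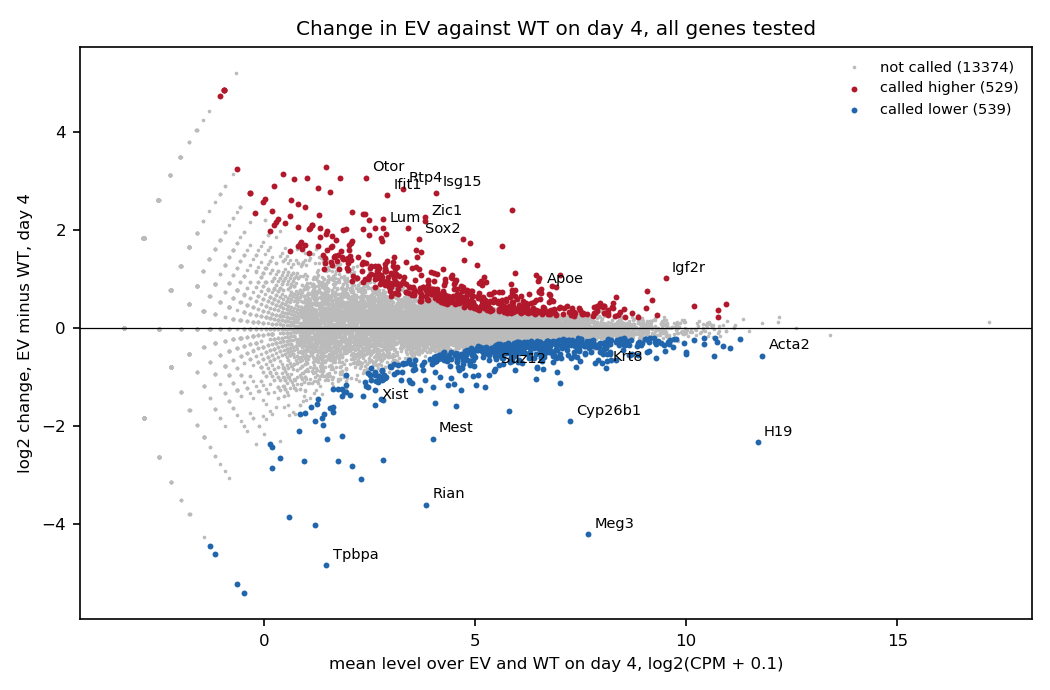
Each point is 1 of 14442 genes, at its mean level over the 6 libraries (log2 of CPM + 0.1, x axis) and its log2 difference, EV minus WT, on day 4 (y axis), with the 529 genes called higher in red, the 539 called lower in blue and the rest in grey. Differences fan out at low levels, where the fitted value of a gene with 0 counts in EV or in WT is no bound, while Meg3 and H19 stand out among the abundant genes at -4.21 and -2.33.

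Interferon-stimulated genes stood out among the 15 largest rises. Otor, a secreted protein gene known from the inner ear, stood at 8.29, 9.42 and 10.4 CPM in the EV libraries and 1.16, 1.41 and 0.698 CPM in the WT libraries (log2 change 3.07 ± 0.43, adjusted p 1.7e-06). Asb4, a SOCS-box protein gene, was at 97.9, 96.9 and 103 CPM in the EV libraries and 18.6, 16.9 and 20.5 CPM in the WT libraries (log2 change 2.41 ± 0.14, adjusted p 7.9e-18), and had the smallest p of the 15 largest rises. In both genes the EV libraries lay far above every WT library, though only genes without overlap could enter the 15. Gabrp, a subunit of the receptor for GABA, was at 25.1, 26.0 and 18.5 CPM in the EV libraries and 4.19, 5.88 and 4.42 CPM in the WT libraries (log2 change 2.26 ± 0.25, adjusted p 8.2e-09). Angpt1, a ligand of the Tek receptor of vessels, was at 20.3, 15.9 and 14.8 CPM in the EV libraries and 4.43, 3.53 and 4.42 CPM in the WT libraries (log2 change 2.03 ± 0.33, adjusted p 2.6e-05). The retrogenes Rbmxl2 and Rpl10l, copies of X-linked genes that are known from the testis, rose by 2.23 and 2.20, and AI662270 rose by 2.37. The other 8 of the 15 are Ifi44, Rtp4, Isg15, Ifit1, Oasl2, Usp18, Zic1 and Lum.

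The 15 largest falls held the imprinted genes Meg3, Rian, H19 and Mest. Tpbpa, a marker of the spongiotrophoblast of the placenta, had 2 counts over the EV libraries and 67 over the WT libraries, a ratio of 34.0 (95% counting interval 9.04 to 286). Serpinb9e and Serpinb9g, serpins of a family that inhibits granzymes, were at 0.691, 1.61 and 0.231 against 6.06, 5.64 and 5.35 CPM and at 0.922, 1.61 and 1.15 against 3.96, 7.29 and 6.05 CPM, and reads of these near-identical neighbours may be shared. Tnfrsf9, a receptor gene of the TNF receptor family, was at 1.84, 0.230 and 0.924 CPM in EV and 6.99, 6.58 and 8.14 CPM in WT. All 4 were low in EV and reached only 3.96 to 8.14 CPM in WT. Sct, which encodes the hormone secretin, was at 27.6, 26.4 and 24.9 CPM in the EV libraries and 79.0, 91.9 and 84.6 CPM in the WT libraries (log2 change -1.69 ± 0.12, adjusted p 3.5e-14). Rgs4, which shortens G-protein signals, was at 9.22, 7.35 and 8.55 CPM in the EV libraries and 21.2, 25.6 and 26.3 CPM in the WT libraries (log2 change -1.54 ± 0.23, adjusted p 1.2e-05). Arhgef6, an activator of Rac, fell by 1.46 and Sfrp5, a secreted inhibitor of Wnt, by 1.45. Xlr3c, one of several similar X-linked copies, was at 0.691, 2.07 and 2.77 CPM in the EV libraries and 13.0, 11.3 and 11.9 CPM in the WT libraries. Xist, the RNA that silences an X chromosome, was at 2.30, 4.13 and 2.77 CPM in the EV libraries and 9.55, 7.05 and 10.9 CPM in the WT libraries. The last of the 15 is Cyp26b1. Xist overlaps its antisense partner Tsix, and the strand used in counting is not given in the sources used here.

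**Figure D2:**
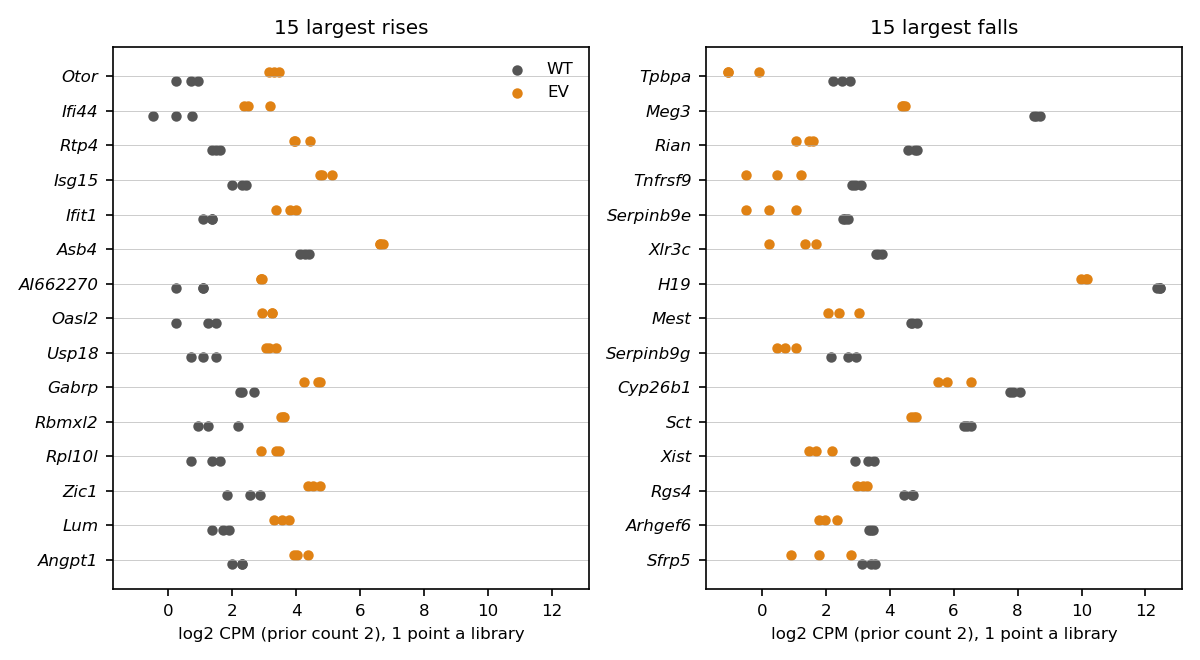
Log2 CPM with a prior count of 2 (x axis) of the 15 largest rises (left) and the 15 largest falls (right), ordered by size, with 1 point for each of the 3 EV (orange) and 3 WT (grey) libraries of day 4. In each gene shown the EV points lie on one side of the WT points, which was a condition of the choice. H19 is the most abundant of the 30 genes.

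Interferon-stimulated genes, which cells turn on when interferon or foreign nucleic acid is sensed, were higher in EV as a group. Of 22 on the list 18 were tested, 12 were called higher and 0 lower, against 3.66% and 3.73% of all genes, and their median log2 difference was 0.98. Isg15, a ubiquitin-like protein that is attached to other proteins, stood at 27.6, 26.2 and 34.0 CPM in the EV libraries and 3.49, 4.94 and 4.42 CPM in the WT libraries (log2 change 2.76 ± 0.24, adjusted p 1.4e-11). Ifit1, a sensor of foreign RNA, was at 9.91, 13.6 and 15.2 CPM in the EV libraries and 2.10, 2.12 and 1.63 CPM in the WT libraries (log2 change 2.71 ± 0.36, adjusted p 6.2e-07). Usp18, which takes Isg15 off its targets, was at 7.83, 9.88 and 8.31 CPM in the EV libraries and 1.16, 1.65 and 2.33 CPM in the WT libraries (log2 change 2.32 ± 0.39, adjusted p 7.0e-05). In these genes, which are among the largest rises chosen without overlap, the EV libraries lay well above every WT library. Bst2, which tethers budding virus to the cell surface, was at 43.8, 43.0 and 36.0 CPM in the EV libraries and 11.4, 10.8 and 12.8 CPM in the WT libraries (log2 change 1.81 ± 0.20, adjusted p 1.1e-08), and Oasl2, an oligoadenylate synthetase-like gene, at 7.14, 8.96 and 9.01 CPM in the EV libraries and 0.699, 2.35 and 1.86 CPM in the WT libraries (log2 change 2.34 ± 0.36, adjusted p 1.2e-05). Ifi44 and Rtp4, of which Rtp4 was on no list, stood at 5.07, 8.50 and 4.62 against 0.233, 1.18 and 0.698 CPM and at 21.2, 14.9 and 14.8 against 2.56, 2.35 and 2.09 CPM. Ifitm3, a membrane protein that blocks virus entry, was abundant in both lines and rose less, at 370.0, 338 and 369 CPM in the EV libraries and 250.2, 255 and 256 CPM in the WT libraries (log2 change 0.50 ± 0.07, adjusted p 4.8e-06). The Ifitm genes are similar neighbours, so reads may be shared between them. Summed over the list, EV libraries held 1025 to 1066 CPM and WT libraries 714 to 724 CPM. The smallest rise called in the list, B2m (0.26), lost its call without EV library 1 (adjusted p 0.148), EV library 2 (adjusted p 0.147), WT library 1 (adjusted p 0.0669), WT library 2 (adjusted p 0.101) and WT library 3 (adjusted p 0.0884).

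The promoters of 4 of these genes are printed below, chosen because they hold the sequence marked in capitals. Oasl2, named above, had no match. Capitals mark GAAANNGAAA, the core of the element that interferon-activated factors bind, or TTTCNNTTTC where it lies on the other strand. The windows run from 250 bases before to 50 bases after the start, are RefSeq sequence of GRCm38.p6 (the mm10 build), and read along the gene's strand. Isg15 lies at chr4:156200769-156201068 on the minus strand, Bst2 at chr8:71537423-71537722, Ifit1 at chr19:34640639-34640938 and Ifitm3 at chr7:141010695-141010994.
Isg15: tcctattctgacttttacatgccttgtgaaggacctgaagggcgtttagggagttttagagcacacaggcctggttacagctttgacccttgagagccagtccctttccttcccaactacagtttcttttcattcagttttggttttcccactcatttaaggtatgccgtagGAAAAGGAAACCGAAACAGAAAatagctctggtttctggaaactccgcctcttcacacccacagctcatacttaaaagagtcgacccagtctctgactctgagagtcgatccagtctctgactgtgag
Bst2: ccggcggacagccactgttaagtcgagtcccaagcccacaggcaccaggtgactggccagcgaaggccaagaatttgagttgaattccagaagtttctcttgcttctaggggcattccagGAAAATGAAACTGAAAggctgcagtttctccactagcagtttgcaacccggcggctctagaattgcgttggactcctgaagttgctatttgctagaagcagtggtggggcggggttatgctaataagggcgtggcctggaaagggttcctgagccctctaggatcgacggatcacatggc
Ifit1: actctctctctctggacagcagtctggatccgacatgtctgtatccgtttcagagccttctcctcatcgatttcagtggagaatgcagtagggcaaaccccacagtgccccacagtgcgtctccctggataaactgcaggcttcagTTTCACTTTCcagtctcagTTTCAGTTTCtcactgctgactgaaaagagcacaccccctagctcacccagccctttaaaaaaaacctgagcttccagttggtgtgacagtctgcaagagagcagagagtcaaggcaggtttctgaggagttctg
Ifitm3: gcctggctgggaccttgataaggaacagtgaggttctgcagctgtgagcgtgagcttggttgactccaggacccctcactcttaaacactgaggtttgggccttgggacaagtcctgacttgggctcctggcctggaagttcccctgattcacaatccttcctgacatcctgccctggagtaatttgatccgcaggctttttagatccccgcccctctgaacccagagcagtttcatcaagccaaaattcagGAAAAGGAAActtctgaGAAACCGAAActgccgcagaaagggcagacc
The run of capitals in Isg15 is 3 matches that overlap one another. A match on either strand was present in 7 of the 10 called interferon genes with a promoter in the RefSeq table (70.0%) and in 10 of the 16 tested ones (62.5%). Interferon genes that were not called thus held matches as well. It was present in 2.76% of the 10574 tested genes with a promoter and in 3.49% of all 27025 promoters in the table. Among genes called higher but on no interferon list it stood in 19 of 378 (5.03%), and among genes called lower in 6 of 412 (1.46%). A match is a description of the sequence and shows no binding.

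Imprinted genes, expressed from the copy of 1 parent, moved both ways and by large amounts. Of 42 listed 38 were tested, 9 were called higher and 15 lower, against 3.66% and 3.73% of all genes, and the median log2 difference was -0.18. The deepest falls were at the Dlk1-Meg3 domain of chromosome 12. Meg3 (chr12:109541001-109571726), a noncoding RNA of the maternal copy, was at 21.0, 21.6 and 20.6 CPM in the EV libraries and 420.3, 363 and 384 CPM in the WT libraries (log2 change -4.21 ± 0.13, adjusted p 2.4e-28). Rian, its neighbour of the same kind, was at 1.61, 2.30 and 2.54 CPM in the EV libraries and 28.7, 23.5 and 27.2 CPM in the WT libraries (log2 change -3.60 ± 0.24, adjusted p 2.2e-15). Dlk1, the paternally expressed growth regulator of the domain, went the other way, with 2008, 1933 and 1846 CPM in the EV libraries and 1624, 1480.3 and 1415 CPM in the WT libraries (log2 change 0.36 ± 0.07, adjusted p 3.0e-04). EV thus held far less Meg3 and Rian beside a slightly higher level of Dlk1. On day 0 Meg3 was already lower in EV, by a log2 difference of -3.59 ± 0.16, as was Rian, by -3.09.

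H19 (chr7:142575529-142578143), a maternally expressed noncoding RNA of chromosome 7, was among the most abundant RNAs that differed, with 1134, 1141 and 1006 CPM in the EV libraries and 5601, 5659.8 and 5278 CPM in the WT libraries (log2 change -2.33 ± 0.09, adjusted p 3.4e-24). Mest, a paternally expressed gene of chromosome 6, was at 4.84, 7.81 and 3.70 CPM in the EV libraries and 28.2, 25.6 and 24.9 CPM in the WT libraries (log2 change -2.26 ± 0.18, adjusted p 9.3e-13). Igf2r, a maternally expressed receptor that clears the growth factor Igf2, was at 996, 1014 and 934 CPM in the EV libraries and 508, 478 and 472 CPM in the WT libraries (log2 change 1.01 ± 0.06, adjusted p 3.1e-16). In each of these the libraries of EV and WT did not overlap, which for H19 and Mest was a condition of the choice by size. Cdkn1c, a maternally expressed inhibitor of the cell cycle, was at 690.2, 694 and 697 CPM in the EV libraries and 482, 448 and 472 CPM in the WT libraries (log2 change 0.57 ± 0.07, adjusted p 3.2e-08). Sfmbt2, a paternally expressed gene needed in the placenta, was at 14.7, 15.2 and 12.9 CPM in the EV libraries and 28.4, 30.1 and 28.1 CPM in the WT libraries (log2 change -1.01 ± 0.15, adjusted p 4.9e-06). The counts do not say from which parental copy a read came, and maternally expressed genes were found among both the rises and the falls. Summed over the list, EV libraries held 9880 to 10204 CPM and WT libraries 14021 to 14771 CPM. H19 alone, with means of 1094 CPM in EV and 5513 CPM in WT, dominates that difference, so the sums do not show a broad fall.

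**Figure D3:**
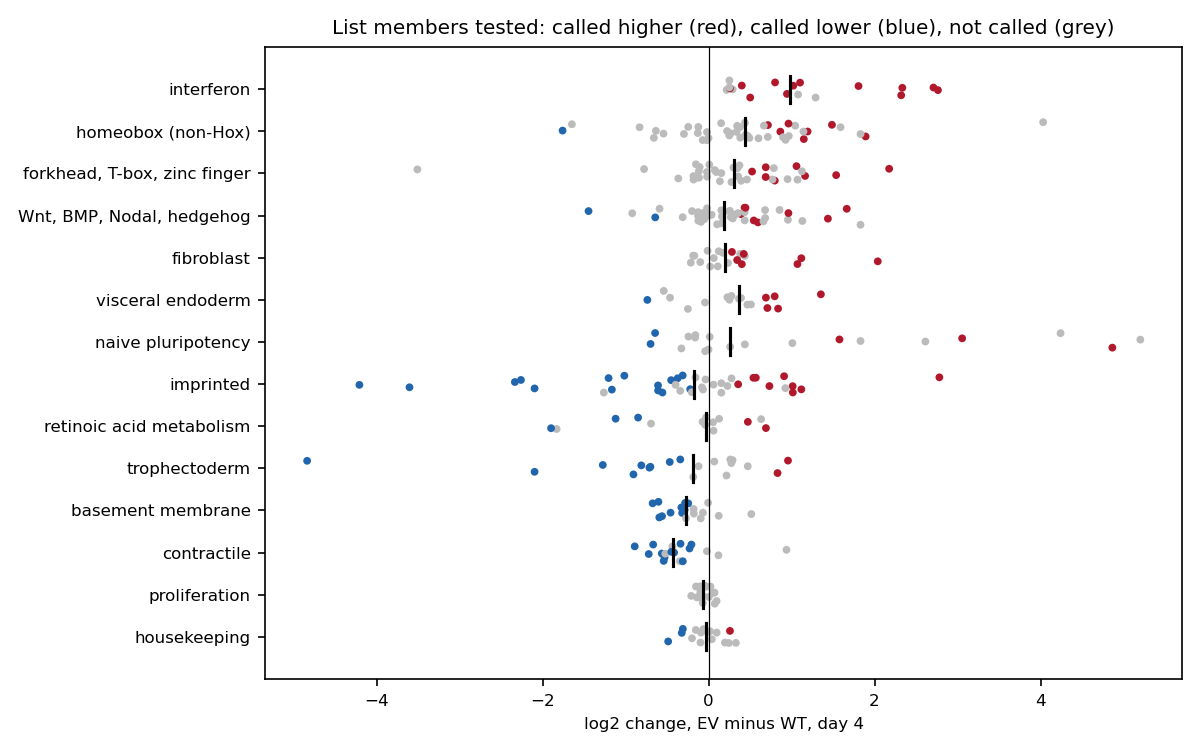
Each point is 1 tested member of a gene list (rows) at its log2 difference, EV minus WT, on day 4 (x axis), red when called higher, blue when called lower and grey when not called, with the list's median as a black bar. Interferon-stimulated genes lie to the right of 0 (median 0.98), contractile and basement membrane genes mostly to the left (-0.42 and -0.28), and imprinted genes spread over both sides; grey points far from 0 are genes with few counts.

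Hox genes, classical PRC2 targets that give cells their place between head and tail, differed in a few members and not in 1 direction. In the HoxA cluster 7 of 11 genes were tested, and 0 were called higher and 1 lower (median -0.25). In HoxB it was 2 and 0 of 10 (median 0.18), in HoxC 1 and 3 of 9 (median -0.23) and in HoxD 0 and 1 of 6 (median 0.33). With only the 6 libraries in the fit, HoxC had 0 higher, and HoxD 1 higher and 0 lower. The stricter filter also left HoxC with 0 higher. Over all genes tested 3.66% were called higher and 3.73% lower. Hoxb13, the last gene of its cluster, was at 10.1, 9.65 and 10.4 CPM in the EV libraries and 4.89, 3.76 and 4.19 CPM in the WT libraries (log2 change 1.23 ± 0.25, adjusted p 8.3e-04). Hoxc11, also a posterior gene, was at 3.92, 1.84 and 2.54 CPM in the EV libraries and 0.466, 0.235 and 0.233 CPM in the WT libraries (log2 change 3.03 ± 0.64, adjusted p 0.00123). Both were higher in every EV library. Hoxc6 was at 19.1, 25.0 and 24.7 CPM in the EV libraries and 41.0, 37.8 and 39.5 CPM in the WT libraries (log2 change -0.78 ± 0.15, adjusted p 3.3e-04) and Hoxc8 at 51.6, 61.8 and 70.0 CPM in the EV libraries and 87.1, 81.8 and 111 CPM in the WT libraries (log2 change -0.61 ± 0.11, adjusted p 8.6e-05). These middle genes of the HoxC cluster were thus lower in every EV library than in any WT library. Hoxd11 had 0 counts in EV and 16 in WT, at least 5.41-fold lower with 3 counts over the group as the floor. Hoxb9 rose by 0.66, a call lost without EV library 1 (adjusted p 0.0896), Hoxa5 fell by 0.37, lost without WT library 3 (adjusted p 0.0555), and Hoxc9 fell by 0.36, lost without EV library 1 (adjusted p 0.111), EV library 2 (adjusted p 0.116), WT library 1 (adjusted p 0.123) and WT library 3 (adjusted p 0.191). Of 9 tested partners and upstream regulators of Hox genes 2 were called higher, and 1 without EV library 1, EV library 2 or any 1 of the WT libraries. Of them Pbx3, a cofactor, was at 88.9, 85.7 and 76.9 CPM in the EV libraries and 58.0, 53.1 and 60.5 CPM in the WT libraries (log2 change 0.55 ± 0.09, adjusted p 5.4e-05).

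**Figure D4:**
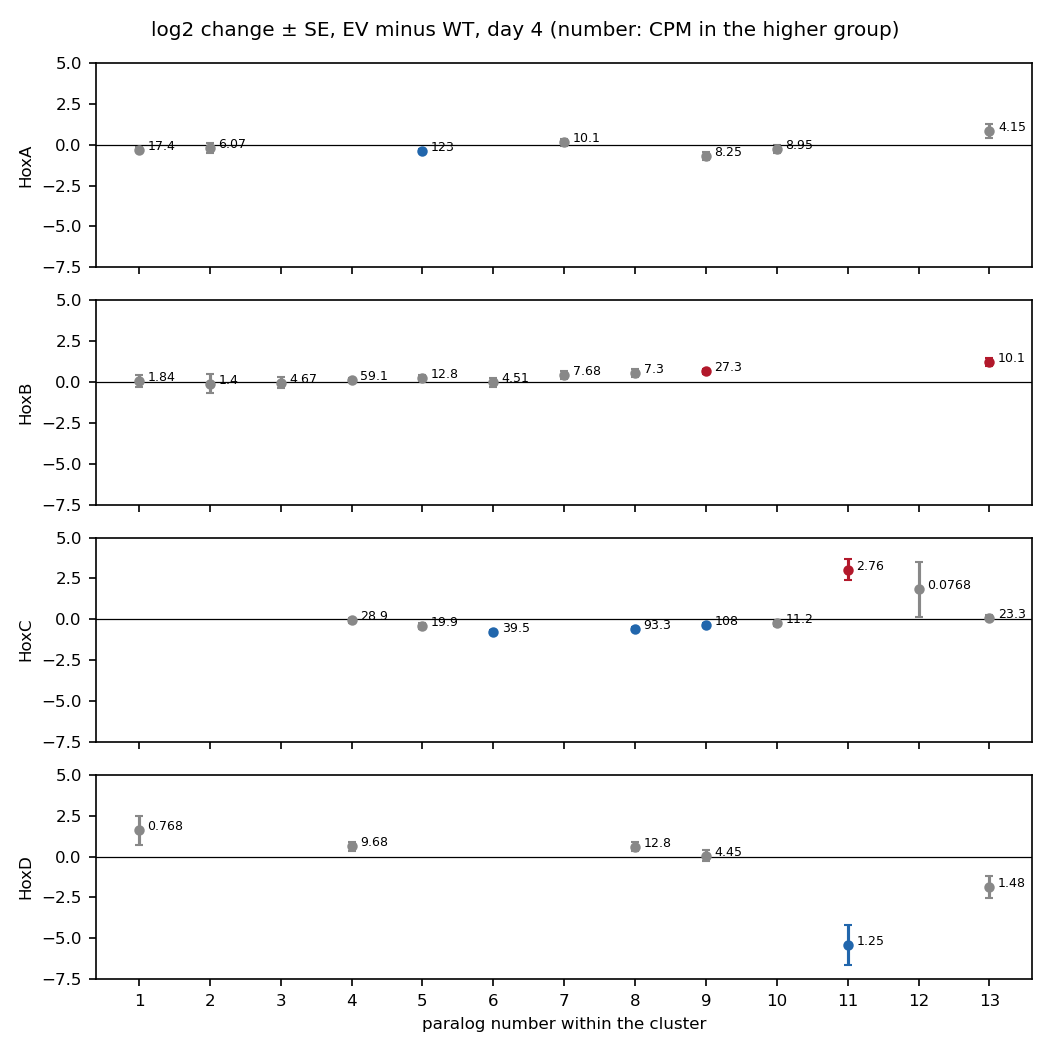
Log2 difference ± SE, EV minus WT, on day 4 (y axis) of each tested Hox gene by paralog number (x axis) in the 4 clusters, red when called higher, blue when called lower and grey when not called, with the mean CPM of the higher group printed beside each point. Hoxb13 and Hoxc11 lie above 0, Hoxc6, Hoxc8 and Hoxc9 below it, and Hoxd11, which had no count in EV, has a fitted value that is no bound.

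Lineage transcription factors outside the Hox clusters were called higher in EV more often than lower. Of 73 other homeobox factors 45 were tested, 7 were called higher and 1 lower, with a median log2 difference of 0.44. Over all genes tested 3.66% were called higher and 3.73% lower, and the 1 fall is close to that share. Pitx1, a factor of hindlimb and face, was at 128, 163 and 149.7 CPM in the EV libraries and 83.4, 77.8 and 80.7 CPM in the WT libraries (log2 change 0.87 ± 0.12, adjusted p 6.1e-07). Msx1, which acts in limb and craniofacial tissue, was at 20.7, 21.8 and 22.2 CPM in the EV libraries and 10.9, 9.64 and 12.6 CPM in the WT libraries (log2 change 0.96 ± 0.17, adjusted p 1.1e-04). Six2, which maintains kidney progenitors, was at 6.22, 11.5 and 8.55 CPM in the EV libraries and 3.26, 2.12 and 1.63 CPM in the WT libraries (log2 change 1.89 ± 0.37, adjusted p 4.0e-04). In these 3 genes each EV library was above each WT library. Vax2, of the ventral eye, rose by 1.19 and Barx1, of stomach and jaw, by 0.72. The list's sum was 610 to 641 CPM in EV and 448 to 452 CPM in WT, and 6 members had no count in any of the 6 libraries. Fitting only the 6 libraries gave 13 higher and 2 lower.

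Among forkhead, T-box, GATA and zinc-finger factors, 37 of 49 were tested, and 8 were called higher and 0 lower (median 0.30), against 3.66% and 3.73% of all genes. Zic1, a zinc-finger factor of the dorsal neural tube, was at 22.6, 20.0 and 26.3 CPM in the EV libraries and 5.36, 3.06 and 6.74 CPM in the WT libraries (log2 change 2.18 ± 0.27, adjusted p 1.1e-07). Osr1, of kidney and limb mesoderm, was at 49.3, 50.5 and 54.5 CPM in the EV libraries and 31.9, 32.2 and 31.6 CPM in the WT libraries (log2 change 0.69 ± 0.13, adjusted p 4.9e-04). Ebf1, known from B cells and mesenchyme, was at 13.4, 9.65 and 14.1 CPM in the EV libraries and 7.92, 4.94 and 4.88 CPM in the WT libraries (log2 change 1.06 ± 0.22, adjusted p 8.1e-04). The count of 8 went to 5 without EV library 1 or WT library 3 and to 4 without WT library 2. Of paired-box, Sox and bHLH factors 27 of 47 were tested, and 3 were called higher and 0 lower (median 0.29). Tcf21, a mesenchymal bHLH factor, was at 18.9, 15.6 and 18.9 CPM in the EV libraries and 6.99, 9.17 and 9.07 CPM in the WT libraries (log2 change 1.08 ± 0.26, adjusted p 0.00545). Pax2, of kidney and midbrain, had 30 counts in EV against 3 in WT, a ratio of 9.87 (95% counting interval 3.07 to 50.5), and its call was lost without EV library 2 (adjusted p 0.0602) and WT library 1 (adjusted p 0.0534).

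Of 61 Wnt, BMP, Nodal and hedgehog genes 45 were tested, 8 were called higher and 2 lower (median 0.19), and the 2 are close to the share of all genes. The Wnt antagonists Dkk1 and Dkk2 stood at 10.4, 15.2 and 11.3 against 3.96, 5.41 and 4.19 CPM (log2 change 1.44) and at 54.6, 42.0 and 43.7 against 22.4, 28.4 and 21.2 CPM (0.96). Both were higher in every EV library, while Sfrp5, another Wnt antagonist, was lower in each. Id2, a target of BMP that blocks bHLH factors, was at 346, 337 and 361 CPM in the EV libraries and 266, 261 and 246 CPM in the WT libraries (log2 change 0.43 ± 0.07, adjusted p 2.6e-05), and Fzd2, a Wnt receptor, at 312, 311 and 288 CPM in the EV libraries and 228, 231 and 211 CPM in the WT libraries (log2 change 0.45 ± 0.08, adjusted p 3.1e-04). Of 44 tested FGF, Eph and Notch genes 2 were called higher and 3 lower, close to the 3.66% and 3.73% of all genes, and both rises were lost without EV library 1 or any 1 of the WT libraries. The Eph receptor genes Ephb3 and Epha2 fell by 0.69 and 0.58.

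Retinoic acid drives the differentiation, and Cyp26a1 and Cyp26b1, which break it down, were lower in EV. Of 14 tested genes of its synthesis, transport and breakdown 2 were called higher and 3 lower (median -0.03), against 3.66% and 3.73% of all genes. Cyp26b1, which degrades retinoic acid, was at 45.4, 54.4 and 93.5 CPM in the EV libraries and 216, 233 and 272 CPM in the WT libraries (log2 change -1.90 ± 0.13, adjusted p 3.1e-15). Cyp26a1, an enzyme of the same family and a direct target of the receptors, was at 84.5, 73.3 and 84.1 CPM in the EV libraries and 158, 164 and 204 CPM in the WT libraries (log2 change -1.12 ± 0.10, adjusted p 1.4e-11). Dhrs3, which reduces retinaldehyde and so limits synthesis, was at 37.6, 37.4 and 56.8 CPM in the EV libraries and 70.4, 72.6 and 94.4 CPM in the WT libraries (log2 change -0.85 ± 0.12, adjusted p 1.0e-06). For Cyp26b1 and Dhrs3 EV library 3 was the highest of the EV libraries, though still below WT. Rbp4, the carrier of retinol, went the other way, at 133, 130.5 and 133 CPM in the EV libraries and 84.6, 87.4 and 73.5 CPM in the WT libraries (log2 change 0.69 ± 0.12, adjusted p 4.6e-05). Crabp1, which binds retinoic acid in the cell, rose by 0.47, a call lost without EV library 1 (adjusted p 0.0737) and WT library 2 (adjusted p 0.0555). None of the 8 tested retinoid receptors was called, with log2 differences from -0.81 to 0.32 (median 0.19). Of 17 genes known as retinoic acid targets 3 were called higher and 2 lower, and the lower ones are Cyp26a1 and Dhrs3. The 3 became 1 without EV library 2 or any 1 of the WT libraries. Among the higher ones Sox6, a factor of cartilage and muscle, was at 28.1, 28.7 and 33.3 CPM in the EV libraries and 17.2, 14.6 and 14.9 CPM in the WT libraries (log2 change 0.95 ± 0.16, adjusted p 6.3e-05).

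Trophectoderm and epithelial genes were called lower more often than higher. Of 20 trophectoderm factors and keratins 19 were tested, 2 were called higher and 9 lower (median -0.18), against 3.66% and 3.73% of all genes. The 2 became 1 without EV library 2, WT library 1 or WT library 2 and 4 with only the 6 libraries in the fit. Krt8, a keratin of simple epithelia, was at 191, 201 and 211 CPM in the EV libraries and 345, 378 and 333 CPM in the WT libraries (log2 change -0.81 ± 0.09, adjusted p 3.2e-09). Its partner Krt18 was at 177, 197 and 210.4 CPM in the EV libraries and 295, 343 and 319 CPM in the WT libraries (log2 change -0.71 ± 0.11, adjusted p 1.2e-05), and Krt7 at 49.3, 48.5 and 50.8 CPM in the EV libraries and 72.5, 83.2 and 85.8 CPM in the WT libraries (log2 change -0.70 ± 0.13, adjusted p 1.5e-04). The keratins named here were thus all lower, and as in most called genes no EV library reached a WT library. Tfap2c, a factor of trophectoderm and germ cells, was at 5.99, 5.97 and 10.4 CPM in the EV libraries and 17.0, 16.7 and 20.5 CPM in the WT libraries (log2 change -1.27 ± 0.20, adjusted p 1.1e-05). The list held 1043 to 1097 CPM in EV and 1397 to 1491 CPM in WT. Of 21 tested epithelial junction and mesenchymal transition genes 1 was called higher and 4 lower (median -0.09), and the 1 is close to the share of all genes. Krt8 and Krt18 are on both lists and among the 4 falls, so the lists are not separate evidence. Cdh1, the E-cadherin of epithelial junctions, was at 116, 119 and 134 CPM in the EV libraries and 203, 199 and 161 CPM in the WT libraries (log2 change -0.61 ± 0.10, adjusted p 2.8e-05), and Cldn4, a tight junction claudin, fell by 0.52. The 1 rise was Cdh11, a cadherin of mesenchyme, at 306, 311 and 258 CPM in the EV libraries and 221, 199 and 206 CPM in the WT libraries (log2 change 0.48 ± 0.09, adjusted p 1.9e-04).

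Extraembryonic endoderm is a main product of retinoic acid treatment, and its gene groups differed in direction. Of 18 basement membrane and parietal endoderm genes all were tested, 0 were called higher and 10 lower (median -0.28), against 3.66% and 3.73% of all genes. Tfpi, an inhibitor of clotting, was at 214, 214 and 213 CPM in the EV libraries and 337, 354 and 332 CPM in the WT libraries (log2 change -0.67 ± 0.08, adjusted p 1.4e-07). Nid1, which links laminin to collagen, was at 131, 142 and 133 CPM in the EV libraries and 202, 207 and 204 CPM in the WT libraries (log2 change -0.59 ± 0.10, adjusted p 2.5e-05), and Lama1, a laminin chain, at 378, 354 and 399.8 CPM in the EV libraries and 589, 550.4 and 530.4 CPM in the WT libraries (log2 change -0.56 ± 0.10, adjusted p 1.2e-04). Pth1r, a hormone receptor of parietal endoderm, fell by 0.60 and Plat, a plasminogen activator, by 0.46. Each of the 5 was lower in every EV library, and most called genes likewise did not overlap. Of 21 genes for proteins that visceral endoderm secretes or takes up, 17 were tested, 5 were called higher and 1 lower (median 0.37). Apoe, a lipid carrier, was at 119.8, 122 and 115 CPM in the EV libraries and 72.0, 72.1 and 61.6 CPM in the WT libraries (log2 change 0.80 ± 0.08, adjusted p 5.5e-10), and Rbp4, given above, is on the same list. Without EV library 2, WT library 1 or WT library 2 the 5 rises became 3, 2 and 3, and the 1 fall was lost without EV library 2. Of 12 primitive endoderm regulators 0 were called higher and 2 lower (median 0.09). Sox7 was at 15.0, 14.0 and 12.7 CPM in the EV libraries and 30.5, 29.8 and 32.1 CPM in the WT libraries (log2 change -1.15 ± 0.16, adjusted p 2.7e-06), and Gata6, which drives the lineage, fell by 0.30, a call lost without EV library 1 (adjusted p 0.117) and WT library 3 (adjusted p 0.0635).

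Contractile genes of smooth muscle were lower in EV, and several matrix genes of fibroblasts were higher. Of 18 contractile genes, all tested, 0 were called higher and 12 lower (median -0.42), against 3.66% and 3.73% of all genes. The 12 became 7 without EV library 3 and 6 without WT library 2. Acta2, the actin of smooth muscle, was among the most abundant messenger RNAs of the list, at 3002, 2957 and 2681 CPM in the EV libraries and 4305, 4486 and 3972 CPM in the WT libraries (log2 change -0.56 ± 0.07, adjusted p 1.6e-07). Cnn1, a calponin that binds actin, was at 94.5, 78.8 and 82.9 CPM in the EV libraries and 156, 165 and 154 CPM in the WT libraries (log2 change -0.89 ± 0.10, adjusted p 4.2e-09). Actg2, an actin of visceral muscle, was at 184, 168 and 164 CPM in the EV libraries and 285, 292 and 273 CPM in the WT libraries (log2 change -0.72 ± 0.08, adjusted p 4.7e-08). The lines did not overlap in any of them, nor in the smooth muscle myosin Myh11 (-0.67) or the tropomyosin Tpm2 (-0.53). The list's sum was 7677 to 8370 CPM in EV and 10157 to 11182 CPM in WT. Of 20 fibroblast and feeder markers, all tested, 7 were called higher and 0 lower (median 0.20), and the 7 became 4 without EV library 1 or WT library 3. Dcn, the proteoglycan decorin, was at 95.1, 83.2 and 72.8 CPM in the EV libraries and 36.3, 45.4 and 33.9 CPM in the WT libraries (log2 change 1.12 ± 0.13, adjusted p 4.2e-08). Col1a2, a chain of collagen I, was at 125, 101 and 129 CPM in the EV libraries and 69.0, 46.8 and 53.5 CPM in the WT libraries (log2 change 1.07 ± 0.11, adjusted p 4.2e-09). Lum, the proteoglycan lumican, was at 13.1, 11.3 and 9.47 CPM in the EV libraries and 3.26, 2.12 and 2.79 CPM in the WT libraries (log2 change 2.04 ± 0.33, adjusted p 3.3e-05), and Col3a1, a fibrillar collagen, at 654, 612 and 549.9 CPM in the EV libraries and 463, 455 and 458 CPM in the WT libraries (log2 change 0.40 ± 0.07, adjusted p 1.0e-04). The labels name gelatin-coated plates and no feeder layer. The list's sum overlapped between the lines, at 5019 to 5571 CPM in EV and 4924 to 5260 CPM in WT, and whether a different share of such cells plays a part was not tested.

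Genes of the stem cell state differed in both directions. Of 19 naive pluripotency genes 3 were called higher and 2 lower (median 0.26), against 3.66% and 3.73% of all genes. The 3 became 1 without EV library 2 or any 1 of the WT libraries. Nanog, on both the naive and the general list, was at 2.30, 4.36 and 3.70 CPM in the EV libraries and 0, 0.235 and 0.930 CPM in the WT libraries (log2 change 3.06 ± 0.65, adjusted p 0.00123). Klf5, which epithelia also express, was at 195, 181 and 192 CPM in the EV libraries and 299, 296 and 292 CPM in the WT libraries (log2 change -0.64 ± 0.06, adjusted p 5.5e-10). Of 14 general pluripotency genes 3 were called higher and 2 lower (median -0.05). Sox2, which neural cells also express, was at 20.3, 17.5 and 21.5 CPM in the EV libraries and 4.89, 6.58 and 5.35 CPM in the WT libraries (log2 change 1.81 ± 0.17, adjusted p 8.1e-11), and Tdgf1, a co-receptor of Nodal, at 6.91, 5.28 and 6.70 CPM in the EV libraries and 1.16, 1.41 and 3.02 CPM in the WT libraries (log2 change 1.74 ± 0.28, adjusted p 3.3e-05). Each EV library thus held more Sox2 and Tdgf1 than each WT library, at levels under 22 CPM. Sall4, a zinc-finger factor of the same list, fell by 0.49. The naive list summed to 389 to 427 CPM in EV and 511 to 532 CPM in WT, and its member Spic had no count. Klf5 alone makes up most of that difference, while 11 members had a log2 difference above 0 and 7 below it. Of 16 formative and primed genes 3 were called higher and 0 lower (median 0.20), and each of the 3 lost its call without at least 1 of the libraries.

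Germline genes, silenced in somatic cells, moved in a few members. Of 35 listed 28 were tested, 5 were called higher and 0 lower (median 0.10), against 3.66% and 3.73% of all genes. The 5 became 3 without EV library 1, WT library 2 or WT library 3. Sohlh2, a factor of germ cell differentiation, was at 46.1, 52.6 and 49.4 CPM in the EV libraries and 22.1, 28.0 and 21.9 CPM in the WT libraries (log2 change 1.04 ± 0.12, adjusted p 2.3e-08), and Rpl10l, given above, was at 6.91, 9.88 and 10.4 CPM in the EV libraries and 2.56, 2.12 and 1.16 CPM in the WT libraries. Of 10 tested genes of the 2-cell stage none was called (median 0.00), and 11 listed genes had no count in the 6 libraries. Of 16 tested neuronal and glial markers 0 were called higher and 2 lower (median -0.11), namely the neural progenitor filament Nes, which fell by 0.59, and the neurofilament Nefm, which fell by 0.86. Of 12 tested endothelial and blood markers 1 was called higher, Fli1, and that call was lost whichever library was left out. Their sums were 305 to 338 CPM in EV and 308 to 324 CPM in WT.

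Lists of growth, stress and control genes had at most 4 called members each, while 3.66% of all genes were called higher and 3.73% lower. Of 15 cell cycle inhibitors and G1 cyclins 2 were called higher and 1 lower (median -0.12), and the fall was lost without EV library 1, EV library 2 or any 1 of the WT libraries. Beside Cdkn1c the other rise was Ccnd2, a G1 cyclin, at 2286, 2285 and 2295 CPM in the EV libraries and 1748, 1579 and 1539 CPM in the WT libraries (log2 change 0.50 ± 0.11, adjusted p 0.00227), a call lost with DESeq2 (adjusted p 0.0743). The differences of Cdkn2a, a classical PRC2 target (0.18, adjusted p 0.356), Cdkn2b (0.17, adjusted p 0.557) and Cdkn1a (-0.19, adjusted p 0.196) did not pass the test. Of 22 p53 targets 0 were called higher and 4 lower (median -0.15), led by Mdm2, which marks p53 for degradation and fell by 0.49. The 4 became 2 without EV library 3 and 1 without WT library 2. Of 18 tested genes of amino acid and unfolded protein stress 1 was called higher and 3 lower (median 0.00). Atf4, their main regulator, was at 220.5, 206 and 219 CPM in the EV libraries and 317, 307 and 303 CPM in the WT libraries (log2 change -0.52 ± 0.09, adjusted p 5.1e-05). Of 21 tested glycolysis genes 0 were higher and 3 lower (median -0.06), among them the glucose transporter Slc2a1, which fell by 0.56, and the kinase Hk2, which fell by 0.46. Of 8 DNA methyltransferase and TET genes only Dnmt1 was called, lower by 0.25, and that call was lost without any 1 of 5 libraries. None of 20 proliferation genes was called (median -0.07), and 1 was called lower with DESeq2, with RLE scaling, with the stricter filter, with only the 6 libraries in the fit and without EV library 3. Of 16 housekeeping controls 1 was called higher and 3 lower (median -0.04), among which Hprt, a purine salvage enzyme, fell by 0.49. The 1 rise was lost without EV library 1, EV library 2 or any 1 of the WT libraries.

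How far the day 4 difference was already present in undifferentiated cells was read from the change of the EV effect, the day 4 difference minus the day 0 difference. It was called for 1000 of 14442 genes (6.92%), 515 upward and 485 downward, and with upper quartile scaling the split was 618 and 358. Dlk1 changed by 3.76 ± 0.38: on day 0 EV had 0.536 ± 0.267 CPM against 5.97 ± 0.824 CPM for WT (mean ± SD, n = 3), the opposite order to day 4. Ccnd2 went from 22.2 ± 7.00 against 87.5 ± 22.1 CPM on day 0 to the higher EV level given above, a change of 2.48. Fzd2 (change 2.06), Apoe (1.09) and the class I antigen gene H2-D1 (2.03) shifted the same way. So these genes were lower in EV before differentiation and not lower after it. H19 showed the reverse, with a day 0 difference of 0.19 (adjusted p 0.712) and a change of -2.53, when its WT level rose by 9.76 over the 4 days and its EV level by 7.23. Sfmbt2 was higher in EV on day 0, by 0.97, and lower on day 4, a change of -1.98. Rhox5, an X-linked homeobox gene, was higher by 2.11 on day 0 and by 0.30 on day 4. The cytoskeletal gene Vim and the thrombin receptor gene F2r changed by -0.90 and -1.20. Meg3, in contrast, was low in EV on both days, and its change of -0.61 did not pass the test (adjusted p 0.114).

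The ddim line gives another reading of EV on day 4. EV against ddim gave 1650 calls of 14442 (11.4%), 858 higher and 792 lower, and 1035 without ddim library 2. This comparison shares the EV libraries with EV against WT, so only values are set side by side. The largest falls by p included Meg3, at -4.77 against ddim and -4.21 against WT, Rian, at -4.08 and -3.60, and H19, at -2.38 and -2.33. Cyp26b1 was at -2.44 and -1.90. Among the rises Isg15 was at 2.82 and 2.76, Asb4 at 2.48 and 2.41, Sox2 at 2.34 and 1.81, and Vcam1, an adhesion molecule, at 2.24 and 1.68. Igf2r was at 1.14 and 1.01. Setting ddim against WT directly gave 21 calls (0.145%), 12 higher and 9 lower, with 1242 genes at an unadjusted p under 0.05. Both comparisons share the WT libraries. Meg3, Cyp26b1, Dhrs3, Hoxa5, Hoxc8 and the matrix gene Ecm1, which were called lower in EV, were called higher in ddim, there by 0.57, 0.54, 0.59, 0.57, 0.52 and 0.45. Rbbp7 was lower than in WT in ddim (-0.38) and in EV (-0.35), and its difference between EV and ddim did not pass the test (0.03, adjusted p 0.832). The difference of Xist between EV and ddim did not pass the test (-0.47, adjusted p 0.469).

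In the Ezh2 series, other libraries of cells that lack Ezh1 and Ezh2 per their label, EV was also compared with its WT on day 4, and the difference between the series was not tested. Among the genes called here 1009 were tested there, and 153 were called in the same direction and 204 in the other. Of all genes tested in both series, 10.0% were called higher there and 8.47% lower. Igf2r was higher in EV there too, by 1.05 (adjusted p 2.6e-05), as were Cdkn1c, by 1.18, and Zic1, by 2.68. Mest was lower, at -2.01 (adjusted p 6.6e-10) and Meg3, at -0.82 (adjusted p 0.00511), against -2.26 and -4.21 here. Other genes stood on opposite sides: Krt8 was at 1.02 there and -0.81 here, Sox2 at -1.02 and 1.81, and Sfmbt2 at 2.60 and -1.01. Of the interferon list 14 genes were tested there, 7 were called higher and 0 lower (median 0.89), against 10.0% and 8.47% of the genes tested in both series. Isg15, Usp18 and Oasl2 were not among those tested.

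**Figure D5:**
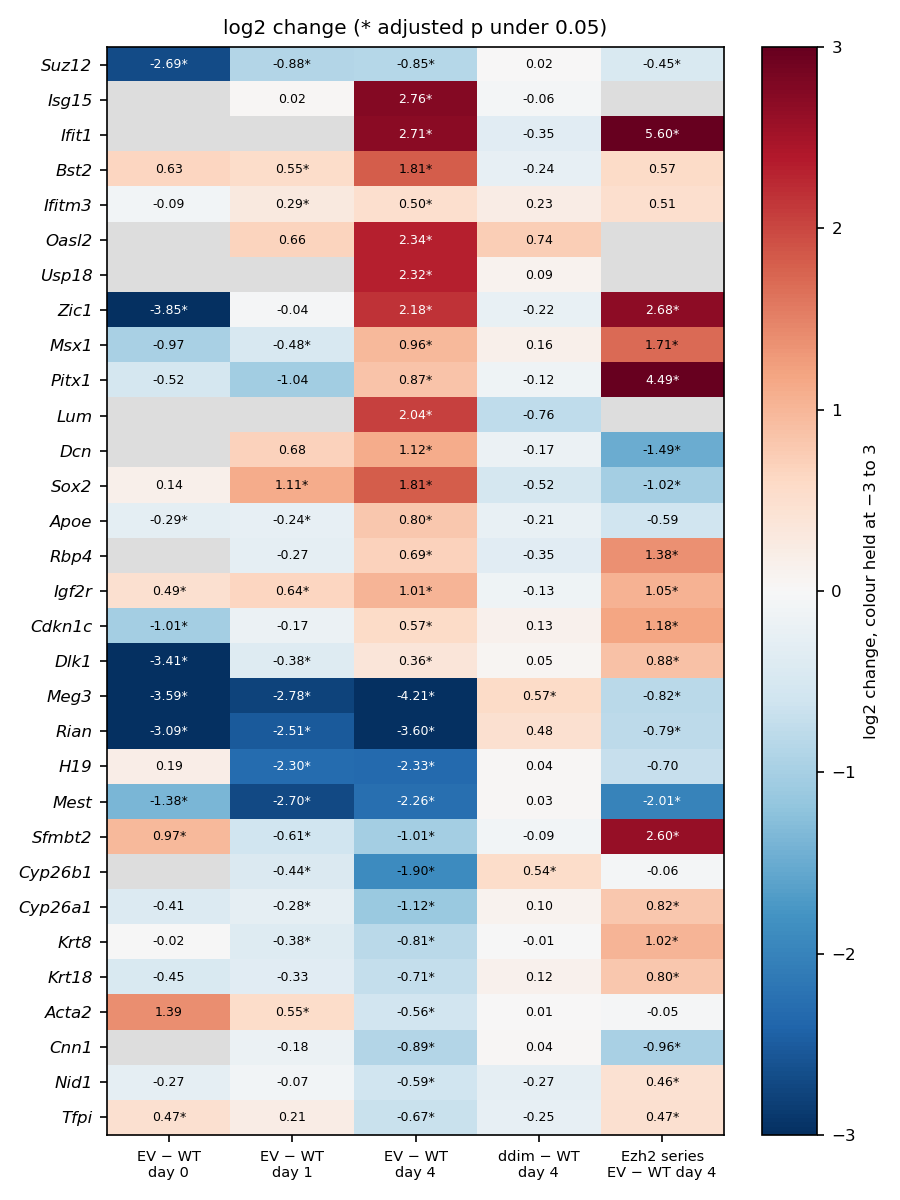
Log2 differences of 31 named genes (rows) in EV against WT on days 0, 1 and 4 and ddim against WT on day 4 of the Suz12 series, and in EV against WT on day 4 of the Ezh2 series (columns), with the colour held at -3 and 3, a star for an adjusted p under 0.05, and grey where no group reached 1 CPM or the gene was not tested. The Suz12 series columns of 1 day share WT libraries, and the ddim column stays near 0 for most rows, with Meg3 at 0.57 and Cyp26b1 at 0.54 called.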

How the data were processed

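RNA was sequenced from its 3′ end. The authors deposited raw counts per Ensembl gene, whole numbers in the layout of an HTSeq-type counter per the file headers. The submitters' processing notes name build mm10; aligner, annotation and counting strand are not given in the sources used here. Rows that name no gene were left out: in the 6 libraries reads outside genes made up 13.4% to 14.4%, ambiguous reads 4.07% to 4.22% and multiply aligned reads 18.4% to 18.9%. Symbols and positions came from GENCODE M21 (55227 of 55487 IDs) and promoters from RefSeq. In R 4.3.3 with edgeR 4.0.16, the 27 Suz12-series libraries (9 groups of 3) were filtered by filterByExpr, scaled by TMM and fitted with a two-sided quasi-likelihood model. P-values were adjusted over 14442 genes, and a call is an adjusted p under 0.05. The 27 Ezh2-series libraries were fitted likewise. A group without a count has a floor of 3 counts over the group, 0.230 CPM in EV and 0.233 in WT; floors and intervals cover counting error only.

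The comparison and 40 gene lists were chosen with earlier results of these data known. Genes are named by rule: by size the top 15 each way among calls without overlap that reach 5 CPM, without predicted genes; up to 5 called members of each list by adjusted p; all PRC2, Hox and cell cycle inhibitor genes; and the 6 smallest p each way for the change from day 0 and for EV against ddim. Alternatives were RLE and upper quartile scaling, no and a stricter filter (10 counts), DESeq2 1.42.0, a replicate block, a chromosome offset, the compared libraries alone and each library left out. Some genes that these rules name are not reported here. The fit was tested on simulated counts. Of 36 pairs of groups, 0 had every same-numbered pair of libraries correlated over 0.1. The 12 deposited gene symbol lists were not used here.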

Additional observations from a re-analysis of the deposited data

Results flagged for a closer look

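The effect of EV differed between undifferentiated cells and day 4 for 1000 genes, by the test of the difference between both days' effects. Genes among the 6 with the smallest p each way are given here, with the day 4 difference minus the day 0 difference on the log2 scale. Suz12 moved by 1.84 (adjusted p 3.7e-13), from 68.1 CPM in EV against 439 CPM in WT on day 0 to 31.5 against 56.7 CPM on day 4. Upward changes were 2.48 for Ccnd2 (adjusted p 8.2e-12), 1.09 for Apoe (adjusted p 4.3e-10), 3.76 for Dlk1 (adjusted p 2.8e-09), 2.03 for H2-D1 (adjusted p 8.6e-09) and 2.06 for Fzd2 (adjusted p 8.6e-09). Downward changes were -1.81 for Rhox5 (adjusted p 2.7e-13), -1.20 for F2r (adjusted p 4.5e-10), -0.90 for Vim (adjusted p 2.2e-08), -2.53 for H19 (adjusted p 2.7e-08) and -1.98 for Sfmbt2 (adjusted p 2.8e-08). The reads of H2-D1 may be shared with related class I genes.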

How the results depend on the processing

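The 1068 calls of EV against WT on day 4 kept their number within 1.5 times under RLE scaling (1070), upper quartile scaling (1104), no filter (988), a stricter filter (1096), the chromosome offset (1059) and DESeq2 (961). With only the 6 libraries fitted there were 1806 calls, 924 higher and 882 lower; the dispersion is then estimated from these 6 libraries alone. A replicate block gave 1055 calls, and 1821 (923 and 898) in the fit of the 6 libraries; since the numbers did not pair the libraries, the samples share only a number. Leaving out 1 library gave 637 to 820 calls (295 to 406 higher and 342 to 414 lower), with 685 without EV library 1 and 637 without WT library 2. The change from day 0 gave 694 to 857 calls with 1 library left out, and upper quartile scaling split its calls into 618 and 358. EV against ddim gave 1035 to 1380 calls (520 to 688 higher and 515 to 692 lower), the lowest without ddim library 2. Of 153 named genes that were called, 115 passed under every alternative that tested them (3 of the 115, Hoxc11, Hoxd11 and Nanog, were filtered out under some), 38 lost the call under at least 1, and none of the 153 reversed. Ezh1, which was not called, changed sign to 0.0074 with upper quartile scaling, 0.037 without EV library 1, and 0.0507 and 0.0894 without WT libraries 1 and 3, in a range from -0.1714 to 0.0894 with 1 library left out. The median of all genes was 0.0015, and -0.0006 and 0.0217 under RLE and upper quartile scaling. Depth limits genes with few counts, since 3 counts over a group are 0.230 to 0.233 CPM.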

Other observations

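Many of the strongest differences lie outside the gene lists: 893 of the 1068 called genes are on none. The genes named in this paragraph are among the 10 with the smallest p each way among them, a choice made after their values were seen. Higher in EV beside Asb4, Gabrp and Rtp4 were Vcam1, an adhesion molecule for white blood cells, at 85.2, 67.5 and 73.4 CPM in the EV libraries and 23.5, 24.4 and 22.6 CPM in the WT libraries (log2 change 1.68 ± 0.15, adjusted p 5.0e-11), Rpl39l, a ribosomal protein retrogene known from the testis, at 49.1, 46.9 and 43.9 CPM in the EV libraries and 21.0, 16.2 and 19.8 CPM in the WT libraries (log2 change 1.29 ± 0.12, adjusted p 6.4e-11), and Igdcc3, a surface protein of the immunoglobulin superfamily, at 164, 172 and 193 CPM in the EV libraries and 83.9, 80.6 and 86.0 CPM in the WT libraries (log2 change 1.08 ± 0.10, adjusted p 1.2e-10). None of the EV libraries fell within the WT range in these genes, as in most called genes. Igfbp4, a binding protein of insulin-like growth factors, was abundant in both lines, at 682, 695 and 665 CPM in the EV libraries and 419.6, 385 and 402 CPM in the WT libraries (log2 change 0.76 ± 0.08, adjusted p 1.5e-09). Phactr2, She and Cenpv rose by 0.96, 1.83 and 1.07.

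Lower in EV beside Sct and Xlr3c were the X-linked reproductive homeobox genes Rhox6, at 54.6, 55.8 and 60.3 CPM in the EV libraries and 117, 127 and 106 CPM in the WT libraries (log2 change -1.04 ± 0.10, adjusted p 2.4e-10), and Rhox9, at 16.1, 15.9 and 12.2 CPM in the EV libraries and 31.9, 36.2 and 38.6 CPM in the WT libraries (log2 change -1.27 ± 0.16, adjusted p 1.2e-07), similar genes between which reads may be shared. The matrix gene Ecm1 stood at 1328, 1253 and 1359 CPM in the EV libraries and 1935, 1911 and 1976 CPM in the WT libraries (log2 change -0.56 ± 0.07, adjusted p 9.3e-08) and Gpx1, an antioxidant selenoenzyme, at 438, 455 and 461 CPM in the EV libraries and 615, 649 and 631 CPM in the WT libraries (log2 change -0.48 ± 0.06, adjusted p 6.4e-08). Both are abundant genes with small differences. The lines did not overlap in them, as in 1046 of the 1068 called genes and 26.8% of all genes. Rassf3 fell by 0.82, the phosphate transporter Slc20a1 by 0.85 and Ifrd1 by 0.80.

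By chromosome, 13.0% of 515 tested X-linked genes were called, 30 higher and 37 lower, while the other chromosomes ranged from 5.31% to 9.04%. The median log2 difference of X-linked genes was -0.01. Genes called higher and genes called lower by at least 1 on the log2 scale both had a median of 11 CpG in the RefSeq window of 300 bases at the start, against 21 for tested genes, 17 for all genes called higher and 21 for all genes called lower. These shares and medians are descriptions and were not tested.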
